A study of Mus musculus with 30 samples.

Results

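The genes described here are a pair of lysozymes, Lyz1 and Lyz2, and 4 genes used as landmarks of microglial development, Dab2, Crybb1, Pmepa1 and F13a1. They were chosen by name and are 6 of the 54532 genes in the count table, each with a single entry. Bulk RNA sequencing was performed on microglia of C57BL/6 mice (C57/B6 in the labels) from 5 isolation protocols, each left untreated (Control) or exposed to HMGB1 during 4 h, which made 10 groups of 3 libraries and 30 libraries in total. HMGB1 is a nuclear protein that acts as an inflammatory danger signal once outside the cell. In the 3 versions of Protocol 1, brain cells of pups aged 0 to 3 days after birth were grown as mixed glia, and the microglia were then shaken off. Each suspension pooled 5 pups, and the replicates came from separate litters. Protocol 1A used 10 days of mixed culture with GM-CSF at 0.5 ng/ml, Protocol 1B used 10 days without GM-CSF, and Protocol 1C used 21 days with GM-CSF at 0.5 ng/ml. Protocol 2 cells came from pools of 3 adult brains at 6 to 8 weeks, were selected by adherence and then spent 7 days in culture, where both GM-CSF and M-CSF were supplied at 100 ng/ml. Protocol 3 cells came from adults of the same age, were drawn with CD11b beads and were treated at once, with 0 days of culture. Cells of Protocols 1 and 2 spent a night in serum-free medium before treatment. How many brains made a Protocol 3 sample is not given in the sources used here. Replicates of Protocols 2 and 3 came from different adult mice per a figure legend of the study, and the HMGB1 dose, 1 µg/ml, is given for Protocol 3 only. Neonatal age always went with culture, so Protocols 1 and 3 differ in age and culture together, and their effects cannot be told apart.

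Lysozymes cut the peptidoglycan of bacterial cell walls. Lyz2 encodes the M lysozyme of macrophages, monocytes and neutrophils, while Lyz1 encodes the P lysozyme best known from Paneth cells of the gut. Microglia pass through transcriptional stages from yolk sac progenitor to adult cell: F13a1, the A subunit of coagulation factor XIII, marks early macrophages, Dab2, an adaptor that gathers receptors into clathrin-coated pits, marks early microglia, and Crybb1, a lens crystallin, and Pmepa1, a TGF-beta-induced membrane protein that restrains SMAD signalling, mark later stages.

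Total counts per library ran from 14151983 to 28564757, with a median of 21640054.5. Levels are given as CPM, each gene's counts over the library total in units of 1000000 after scaling by TMM, which sets libraries to a common level for most genes, and errors are SD over 3 libraries. In the bulk samples used here, fewer cells of a type and less RNA per cell cannot be told apart. Of 9 microglial markers, all 9 were detected, meaning any count above 0, in 9 of the 10 groups, and their summed level was 1522 to 5150 CPM. Siglech had 0 counts in Protocol 1B with HMGB1. It averaged at most 0.587 CPM in every other culture group, against 445 CPM in Protocol 3 Controls. Tmem119, a defining marker, averaged 1.24 CPM in Protocol 1A Controls and 60.0 CPM in Protocol 3 Controls. The 10 neutrophil markers summed to 353 to 749 CPM in Protocol 3 and to at most 77.2 CPM elsewhere.

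Lyz1 and Lyz2 lie side by side on chromosome 10, on the minus strand. In GRCm38 coordinates the Lyz1 gene (ENSMUSG00000069515) spans chr10:117287797-117292868 and Lyz2 (ENSMUSG00000069516) spans chr10:117277331-117282321. The start of their coding sequences is printed because it shows how nearly the pair share their reads. Each is 444 bases long without the stop codon, from 4 exons, spanning chr10:117288586-117292838 for Lyz1 and chr10:117278124-117282242 for Lyz2 (GENCODE M21). The first 275 bases of each are given, in which capitals mark 20 of the 22 bases that differ.
Lyz1: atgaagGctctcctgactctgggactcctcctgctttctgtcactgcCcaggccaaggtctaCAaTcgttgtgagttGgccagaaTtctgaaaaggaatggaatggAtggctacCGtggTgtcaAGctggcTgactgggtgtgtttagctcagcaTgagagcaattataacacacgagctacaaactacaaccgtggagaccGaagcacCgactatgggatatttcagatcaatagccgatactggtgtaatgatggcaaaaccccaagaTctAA
Lyz2: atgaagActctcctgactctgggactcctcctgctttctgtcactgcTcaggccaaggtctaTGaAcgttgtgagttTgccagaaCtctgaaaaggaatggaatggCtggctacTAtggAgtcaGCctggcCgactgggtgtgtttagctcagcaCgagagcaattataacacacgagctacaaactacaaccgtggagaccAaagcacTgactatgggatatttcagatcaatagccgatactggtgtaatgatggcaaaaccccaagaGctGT
The coding sequences were 95% identical, and the longest stretch without a difference was 118 bases. Of all 50-base windows in the Lyz1 transcript, 16.1% were also found in the Lyz2 transcript, against 2.06% of 100-base windows and 0 of the 150-base windows. How reads matching both genes were counted is not given in the sources used here, so low Lyz1 counts beside very high Lyz2 counts are uncertain.

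The upstream sequences are shown because both genes were far lower in Protocol 3 than in the cultures. The stretch from 125 to 51 bases before the RefSeq start (GRCm38.p6, minus strand) is chr10:117292919-117292993 for Lyz1 and chr10:117282323-117282397 for Lyz2. Capitals mark the motif AGGAAGT, an ETS-type sequence that PU.1 can bind, here on the opposite strand.
Lyz1: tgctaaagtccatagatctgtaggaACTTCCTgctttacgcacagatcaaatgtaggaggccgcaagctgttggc
Lyz2: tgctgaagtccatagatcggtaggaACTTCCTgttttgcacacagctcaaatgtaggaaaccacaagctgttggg
The 75 bases differed at 10 positions, an identity of 86.7%. Searched on both strands of windows from 250 bases before to 50 after the start, the motif AGGAAGT was present in 9.35% of 32851 RefSeq promoters. It was found in the single promoter of Lyz1 and of Lyz2, in 1 of 2 promoters of F13a1, in 0 of 2 promoters of Dab2 and in 0 of 1 promoter of Crybb1. A match is a sequence description and was not tested for binding.

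Lyz2 was among the most abundant transcripts of the cultured cells and was far lower in the acutely isolated ones. In the Protocol 1A Controls it stood at 16599, 15289 and 17150 CPM, and as a group mean it ranked 1 of all genes by CPM. The Protocol 1B Controls, grown without GM-CSF, held 9120.2, 6980.4 and 6694 CPM, and the Protocol 1C Controls 19815, 18523 and 17077 CPM. Protocol 1B was the lowest of the neonatal cultures, with no overlap. In Protocol 2 Controls the values were 16364.5, 18043.5 and 17232 CPM, within the range of Protocols 1A and 1C. Protocol 3 Controls held 232, 309 and 220.4 CPM, or 0.0231% of counts, and Lyz2 ranked 896 there. No cultured library came near these 3.

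Lyz1 was likewise lowest in Protocol 3, at a much lower level throughout. Protocol 1A Controls had 4.87, 2.90 and 3.91 CPM, those of 1B 4.43, 2.48 and 1.83 CPM and those of 1C 10.7, 8.09 and 10.3 CPM. Protocol 1C was above both 10-day cultures in each library. Protocol 2 Controls were highest, at 13.4, 12.02 and 13.5 CPM, and Protocol 3 Controls lowest, at 0.870, 0.290 and 0.298 CPM from 17, 6 and 7 counts. Per kilobase of gene length, Lyz2 averaged 12421 ± 726 CPM and Lyz1 3.08 ± 0.779 CPM in Protocol 1A Controls, so the M lysozyme made up nearly all lysozyme transcripts.

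**Figure D1:**
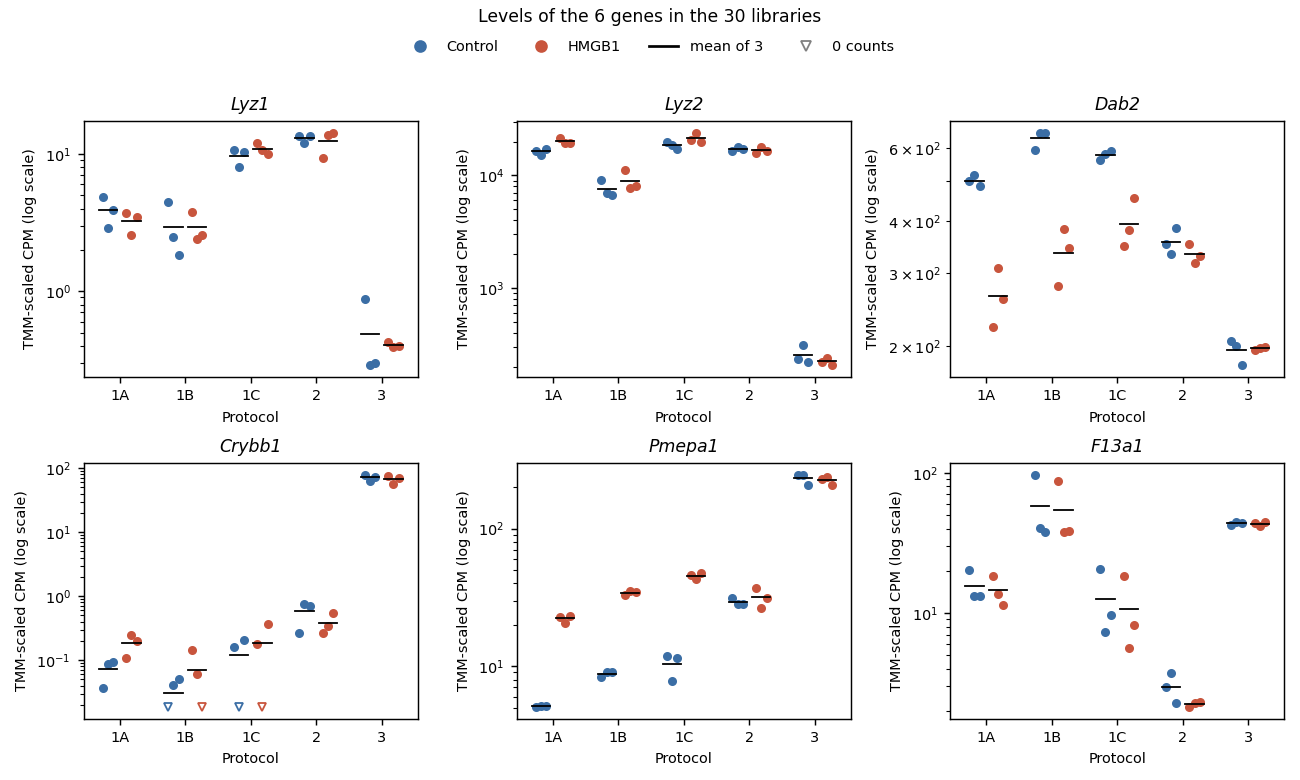
TMM-scaled CPM on a log scale (y) of the 6 genes in each of the 30 libraries, by protocol (x) and treatment (colour), with black bars for the means of 3 and open triangles for 0 counts. Lyz1, Lyz2 and Dab2 were lowest in Protocol 3, where Crybb1 and Pmepa1 were highest, and F13a1 was highest in Protocol 1B on average and lowest in Protocol 2.

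The Controls were compared to ask how the isolation protocol sets the basal state. The 15 Control libraries were fitted together, and Protocol 1 stood for the average of its 3 versions. In that fit, 6 of 6 genes differed between Protocols 1 and 3 (edgeR quasi-likelihood test, Benjamini-Hochberg adjusted p below 0.05), 3 higher and 3 lower in Protocol 1, where 80.1% of all genes tested did, 37.3% higher and 42.9% lower. Lyz2 was 50.1-fold higher in Protocol 1 (log2 fold change 5.65, SE 0.143, adjusted p = 3.754e-18) and 64.0-fold higher in Protocol 2 (5.9997, SE 0.152, adjusted p = 1.393e-17) than in Protocol 3. Lyz1 was 9.65-fold higher in Protocol 1 (3.27, SE 0.339, adjusted p = 4.248e-08) and 25.6-fold higher in Protocol 2 (4.68, SE 0.356, adjusted p = 5.857e-10). Between Protocols 2 and 3, 6 of 6 genes differed, as did 77.3% of all genes, 40.1% higher and 37.2% lower in Protocol 2. Between Protocols 1 and 2 the corresponding numbers were 6 of 6 and 55.3%, with 24.6% of all genes higher and 30.7% lower in Protocol 1. A difference was thus the usual outcome for a gene in these 3 comparisons. The comparisons share their Control libraries.

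The 2 lysozymes also differed between the cultures. Lyz1 was lower in Protocol 1 than in Protocol 2 (log2 fold change -1.40, adjusted p = 8.529e-06). Lyz2 was slightly lower (-0.35, adjusted p = 0.004591), but Protocol 1A alone did not differ from Protocol 2 (-0.06, adjusted p = 0.7126). Of the 6 genes, 4 differed between 1B and 1A, against 30.8% of all genes, and Lyz2 was among them, 2.10-fold lower in 1B (log2 fold change -1.07, SE 0.124, adjusted p = 1.391e-06). Monocyte markers moved with it, at 0.305 to 0.825 CPM in 1B Controls against 124 to 179 CPM in 1A. The neutrophil sum was also lower, at 2.19 to 4.24 CPM against 43.0 to 60.8 CPM, but most of it was Mmp8, at 2.96 against 47.9 CPM. S100a8 averaged 0.112 against 4.48 CPM, and each other neutrophil marker at most 0.219 CPM in either group. The part of these markers was not tested. Lyz1 gave -0.39 in that comparison (adjusted p = 0.3519), and without Protocol 1B Control replicate 1 it gave -0.80 (adjusted p = 0.04789). Between 1C and 1A, 3 of the 6 differed against 21% of all genes. Lyz1 was 2.50-fold higher in 1C (1.32, SE 0.270, adjusted p = 0.001591), while Lyz2 gave 0.19 (adjusted p = 0.3055).

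In Protocol 3 the highest Lyz2 level came with the highest markers of blood myeloid cells, in 1 replicate number of the 3. Replicate 2 had the highest Lyz2 level in both groups, 309 CPM in Control and 241 CPM with HMGB1. The neutrophil markers, 10 of 10 detected, summed to 749 and 707 CPM in those libraries against 353 to 388 CPM in the others, and the 5 monocyte markers to 102 and 99.4 CPM against 46.7 to 55.9 CPM. Between replicates 1 and 3, both marker sums had the same order as Lyz2 in Control. With HMGB1 the monocyte sum had the same order but the neutrophil sum the opposite. Lyz2 was 220 CPM in replicate 1 and 207 CPM in replicate 3, and the neutrophil sum 357.5 and 388 CPM. The part of these markers in the Lyz2 level was not tested. In the cultures, where Lyz2 was high, neutrophil markers summed to 2.19 to 77.2 CPM. In their Control groups 4 to 6 of the 10 were detected, with Elane and Retnlg at 0 counts in each, while Mmp8 averaged 47.9 CPM in 1A, 16.4 CPM in 1C and 20.4 CPM in Protocol 2 against 3.73 CPM in Protocol 3. Monocyte markers summed to 124 to 179 CPM in 1A Controls and 93.6 to 170.5 CPM in 1C Controls, above most Protocol 3 libraries, and to 6.94 to 10.1 CPM in Protocol 2.

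**Figure D2:**
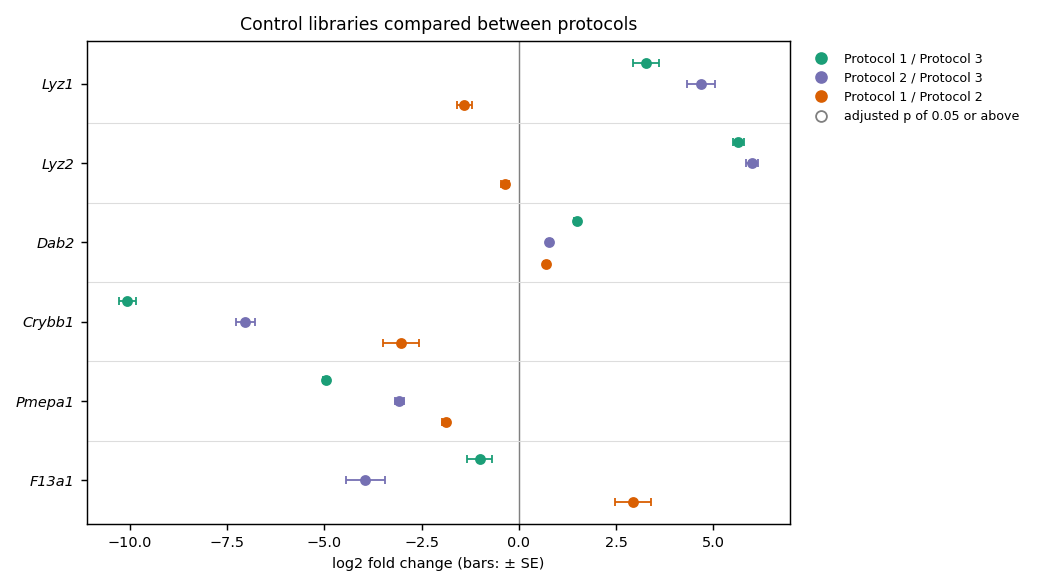
Log2 fold change (x, bars ± SE) of each gene (y) between Control libraries of Protocols 1, 2 and 3, with 3 libraries per protocol and Protocol 1 averaged over its 3 versions. Filled points have an adjusted p below 0.05, as each of the 18 does, from the high lysozymes on the right to Crybb1 at -10.07 on the left.

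Dab2, the clathrin adaptor (ENSMUSG00000022150, chr15:6299788-6440712, plus strand), was highest in the neonatal cultures. Protocol 1A Controls had 498, 516 and 485 CPM, those of 1B 594, 652 and 651 CPM and those of 1C 562, 581 and 590.0 CPM. The 3 neonatal groups did not overlap with one another, with 1B highest. Protocol 2 Controls held 351, 334 and 385 CPM and Protocol 3 Controls 205, 200.1 and 179.9 CPM, each below the group before it in every library. Dab2 was 2.81-fold higher in Protocol 1 than in Protocol 3 (log2 fold change 1.49, SE 0.0669, adjusted p = 3.331e-14) and 1.63-fold higher than in Protocol 2 (0.70, SE 0.0634, adjusted p = 1.482e-08). Protocol 2 exceeded Protocol 3 by 0.79 (SE 0.0751, adjusted p = 8.049e-09). Against 1A, the difference was 0.38 for 1B (adjusted p = 0.0006178) and 0.22 for 1C (adjusted p = 0.03774). The latter call was lost under 5 other processing choices, with adjusted p from 0.05154 to 0.1828, and without any of 6 single Control libraries, namely the 3 of 1A, 1B replicate 2 and 1C replicates 2 and 3 (adjusted p = 0.05016 to 0.1294).

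Crybb1, the lens crystallin (ENSMUSG00000029343, chr5:112255815-112269585, plus strand), separated Protocol 3 from every culture. Protocol 3 Controls had 1531, 1311 and 1732 counts, or 78.4, 63.4 and 73.7 CPM. The Protocol 2 Controls had 7, 20 and 18 counts, or 0.261, 0.765 and 0.709 CPM. In the neonatal Controls the counts were 1, 2 and 2 in Protocol 1A, 0, 1 and 1 in Protocol 1B and 3, 0 and 5 in Protocol 1C. The 15 neonatal counts against 4574 in Protocol 3 gave a 979.8-fold ratio, with a 95% interval of 593 to 1752 that covers counting error only. Protocol 3 exceeded Protocol 2 by 124.9-fold (93.2 to 171), and Protocol 2 exceeded Protocol 1 by 7.85-fold (4.29 to 15.2). The fitted log2 fold changes were -10.07 for Protocol 1 against 3 (adjusted p = 1.891e-18), -7.03 for Protocol 2 against 3 (adjusted p = 8.051e-15) and -3.03 for Protocol 1 against 2 (adjusted p = 2.08e-05). Within the neonatal cultures the Crybb1 differences, -1.04 in 1B and 0.71 in 1C against 1A, were not detectable at this depth (adjusted p = 0.5639 and 0.6464).

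Pmepa1, the restraint on SMAD signalling (ENSMUSG00000038400, chr2:173224458-173276533, minus strand), showed the same order of protocols with a smaller range. It stood at 246.2, 246.1 and 206 CPM in Protocol 3 Controls and at 31.1, 28.5 and 28.4 CPM in Protocol 2 Controls. Neonatal Controls held 5.06, 5.16 and 5.13 CPM in Protocol 1A, 8.34, 9.08 and 9.09 CPM in Protocol 1B and 11.9, 7.85 and 11.4 CPM in Protocol 1C. The 1A libraries were below all others, while the 1B and 1C libraries overlapped. Pmepa1 was 31.1-fold lower in Protocol 1 than in Protocol 3 (log2 fold change -4.96, SE 0.0825, adjusted p = 8.372e-21) and 8.41-fold lower in Protocol 2 than in Protocol 3 (-3.07, SE 0.113, adjusted p = 2.542e-15). Protocol 1 was below Protocol 2 by 3.70-fold (-1.89, adjusted p = 1.537e-12). Against 1A, the level was higher in 1B (0.83, adjusted p = 7.903e-05) and in 1C (1.03, adjusted p = 1.261e-05).

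F13a1, the factor XIII subunit (ENSMUSG00000039109, chr13:36867178-37050244, minus strand), had another order. The Protocol 3 Controls were tightly grouped at 42.3, 44.5 and 43.8 CPM, and the Protocol 2 Controls lowest at 2.95, 3.71 and 2.28 CPM. The neonatal Controls held 20.2, 13.2 and 13.3 CPM in Protocol 1A, 96.6, 40.4 and 37.6 CPM in Protocol 1B and 20.6, 7.38 and 9.71 CPM in Protocol 1C. The 1B libraries were above those of 1A and 1C and overlapped with those of Protocol 3. F13a1 was 15.4-fold lower in Protocol 2 than in Protocol 3 (log2 fold change -3.95, SE 0.504, adjusted p = 2.496e-05) and 7.66-fold higher in Protocol 1 than in Protocol 2 (2.94, SE 0.457, adjusted p = 0.0002307). The difference between Protocols 1 and 3 was -1.01 (SE 0.327, adjusted p = 0.01476), and with library totals in place of TMM it was -0.56 (adjusted p = 0.1281). Protocol 1B was 3.804-fold above 1A (1.93, SE 0.432, adjusted p = 0.006108), while 1C gave -0.32 against 1A (adjusted p = 0.6933).

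The F13a1 spread between replicates came mostly from replicate 1. In Protocol 1B, replicate 1 was 2.48-fold above the mean of replicates 2 and 3 in Control and 2.28-fold above it with HMGB1. In Protocol 1C the ratios were 2.42 and 2.67, and in Protocol 1A they were 1.52 and 1.45. Replicate 1 was thus the highest of its group in all 6 neonatal groups. In Protocols 2 and 3 the ratio lay between 0.926 and 1.02. The coefficient of variation (SD over mean) of F13a1 was 57.1% in Protocol 1B Controls, and 0.182% of the genes with 10 to 100 CPM there had a higher one, with a median of 6.24% among these genes. In Protocol 1C with HMGB1 it was 63.0%, and 0.0545% of such genes were higher. In Protocol 3 Controls it was 2.57%, and 91.2% were higher. The sum of the border macrophage markers was mostly Mrc1 and Ms4a7, which averaged 633 and 324 CPM in 1B Controls. The others, Cd163, Lyve1, Cbr2 and Cd209f, averaged 0.664, 0.338, 1.56 and 0 CPM there, against 17.9, 7.89, 13.3 and 1.28 CPM in Protocol 3 Controls. In Protocol 1B the markers summed to 1059 CPM in replicate 1 of the Controls against 937 and 882 CPM. With HMGB1 they summed to 1235 CPM in replicate 1 against 1174 and 1084 CPM. Replicate 1 was also highest in 1C Control (860.4 CPM against 749 and 827 CPM), but not in 1A Control (530.1 CPM against 519 and 539 CPM), 1A with HMGB1 (571 CPM against 586 and 546 CPM) or 1C with HMGB1 (924 CPM against 917 and 996 CPM). Their part was not tested.

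**Figure D3:**
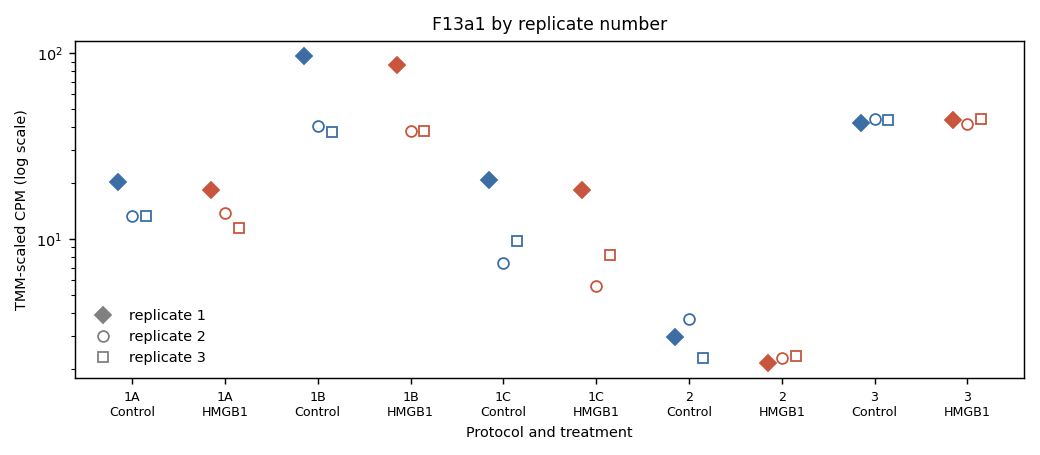
TMM-scaled CPM of F13a1 on a log scale (y) in each library of the 10 groups (x), Control in blue and HMGB1 in red, with replicate 1 as a filled diamond and replicates 2 and 3 as open symbols. Replicate 1 stood highest in the 6 neonatal groups, up to 96.6 CPM in Protocol 1B Control, and lay with the others in Protocol 3.

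HMGB1 was given to ask how strongly cells from each protocol respond. Pmepa1 rose and Dab2 fell in the 3 neonatal cultures, whereas 0 of the tested genes among the 6 changed in either adult protocol. Of the 5 genes with enough counts to be tested in each neonatal culture, 3 changed in Protocol 1A, where 61.3% of all genes tested did (29.7% higher and 31.6% lower). In Protocol 1B it was 2, against 61.8% of all genes (29.8% and 32%), and in Protocol 1C it was 2, against 60.2% (28.4% and 31.8%), so these counts were no larger than those of genes in general. Crybb1 had too few counts there. In Protocol 2, 0 of 6 changed, against 1.49% of all genes, and in Protocol 3, 0 of 5, against 0.123%, with Lyz1 too low to be tested. In both adult protocols 0 of these genes had an unadjusted p below 0.05 in these fits without pairs, and the DESeq2 Wald test called 0. With the replicate number as a block edgeR also called 0. The lowest adjusted p was then 0.1096 in Protocol 2 (Dab2, -0.10) and 0.07454 in Protocol 3 (Lyz2, -0.16).

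Pmepa1 had the largest response of the 6 genes. With HMGB1 it reached 22.9, 20.7 and 23.1 CPM in Protocol 1A, 32.8, 35.0 and 34.5 CPM in Protocol 1B and 46.0, 43.0 and 47.3 CPM in Protocol 1C. Each HMGB1 library exceeded each Control library of its protocol, as listed above. The increase was 4.27-fold in 1A (log2 fold change 2.09, SE 0.116, adjusted p = 2.117e-09), 3.87-fold in 1B (1.95, SE 0.0907, adjusted p = 1.843e-08) and 4.42-fold in 1C (2.14, SE 0.147, adjusted p = 1.887e-07). The treated neonatal libraries stayed below the Protocol 3 Controls, whose lowest value was 206 CPM. Protocol 2 libraries with HMGB1 held 37.1, 26.5 and 31.6 CPM and overlapped with their Controls (0.10, SE 0.107, adjusted p = 0.8934). Protocol 3 libraries with HMGB1 held 228, 239 and 209 CPM and also overlapped (-0.03, SE 0.0814, adjusted p = 0.9947).

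Dab2 moved the other way. Treated libraries had 223, 309 and 259 CPM in Protocol 1A, whereas those of 1B had 279, 383 and 345 CPM and those of 1C 348, 381 and 454 CPM. No HMGB1 library overlapped with the Controls of its protocol, and replicate 1 was the lowest of the 3 in each. Dab2 was 1.93-fold lower in 1A (log2 fold change -0.95, SE 0.102, adjusted p = 1.095e-05), 1.88-fold lower in 1B (-0.91, SE 0.111, adjusted p = 7.298e-05) and 1.46-fold lower in 1C (-0.54, SE 0.109, adjusted p = 0.00109). Protocol 2 gave 353, 317 and 329 CPM, which overlapped with Control (-0.11, SE 0.0680, adjusted p = 0.7689). Protocol 3 gave 195, 198 and 199 CPM, inside the Control range (0.03, SE 0.0699, adjusted p = 0.9947).

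**Figure D4:**
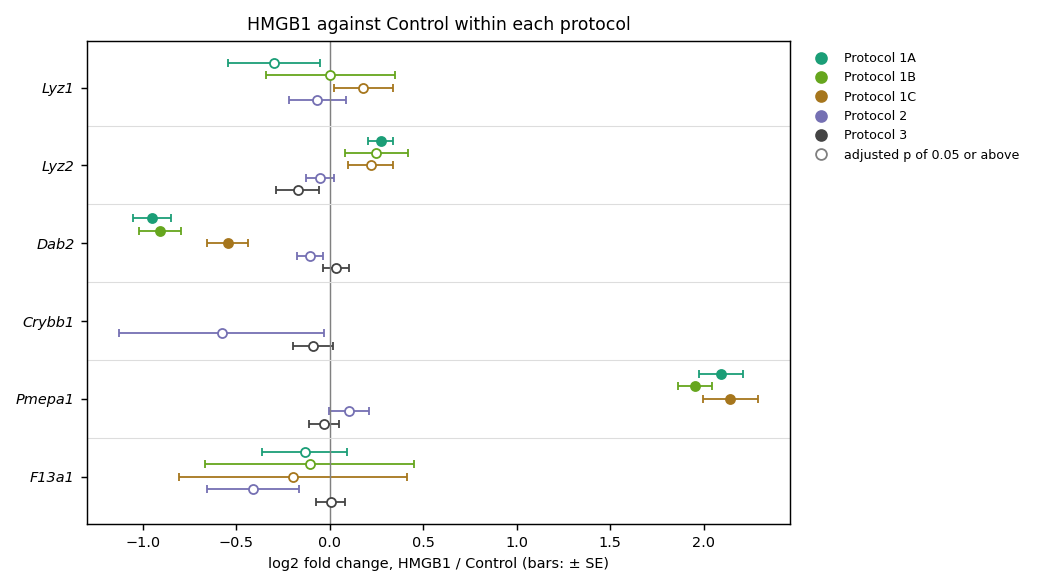
Log2 fold change with HMGB1 (x, bars ± SE) of each gene (y) in the 5 protocols, 3 libraries against 3, filled where the adjusted p was below 0.05. Pmepa1 was near 2 and Dab2 between -0.95 and -0.54 in the neonatal cultures, and the adult protocols lay near 0 for both. The Lyz2 values of the neonatal cultures turn negative with library totals in place of TMM.

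Lyz2 with HMGB1 was 21316, 19525 and 19385 CPM in Protocol 1A, above each Control library. The log2 fold change was 0.27 (SE 0.0686, adjusted p = 0.00349), and in a fit of all 30 libraries it was 0.30 (adjusted p = 0.05547). In Protocol 1B the values were 11197, 7688 and 8079 CPM, and in Protocol 1C they were 20684, 23832 and 19719 CPM. Both overlapped with Control (0.25, SE 0.167, adjusted p = 0.2298, and 0.22, SE 0.120, adjusted p = 0.1371). With the replicate number as a block these became 0.24 (adjusted p = 0.001096) and 0.22 (adjusted p = 0.04463), and by the DESeq2 Wald test the Protocol 1C value was 0.27 (adjusted p = 0.02919).

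The direction for Lyz2 depended on the scaling. As a share of all counts it went from 2.08, 1.91 and 2.02% in Protocol 1A Controls to 1.91, 1.78 and 1.73% with HMGB1. On this scale each HMGB1 library was below each Control library. With library totals in place of TMM the log2 fold change was -0.15 in 1A (adjusted p = 0.02117), -0.22 in 1B (adjusted p = 0.314) and -0.41 in 1C (adjusted p = 0.005085). That scaling shifted the median of all genes by -0.42, -0.47 and -0.63, so relative to it Lyz2 was again above most genes. Pmepa1 and Dab2 kept their directions and calls in the 3 cultures under either scaling.

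**Figure D5:**
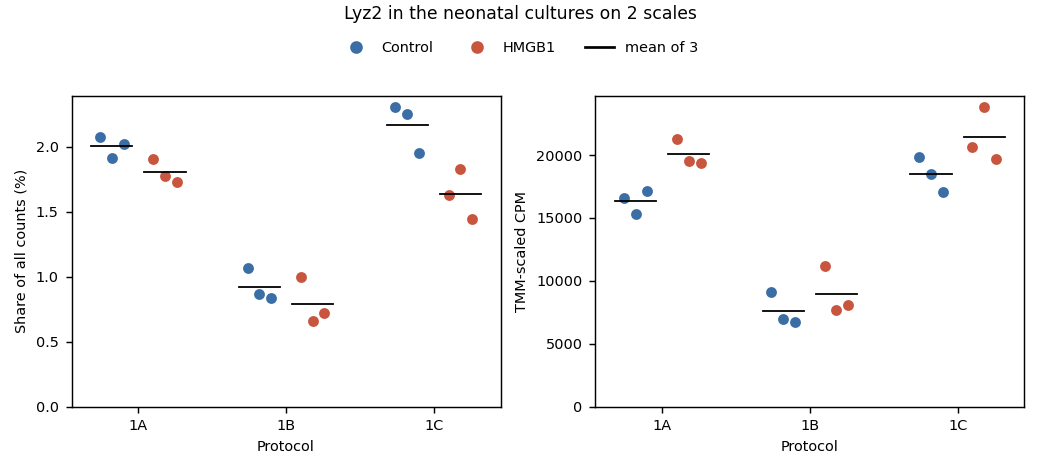
Lyz2 in each library of Protocols 1A, 1B and 1C (x), Control in blue and HMGB1 in red, as percent of all counts (left, y) and as TMM-scaled CPM (right, y), with bars for the means of 3. The means went down with HMGB1 on the left and up on the right.

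In the adult protocols Lyz2 with HMGB1 was 15716, 17803 and 16546 CPM in Protocol 2 and 220.1, 241 and 207 CPM in Protocol 3. Both overlapped with Control, with log2 fold changes of -0.05 (SE 0.0757, adjusted p = 0.9538) and -0.17 (SE 0.114, adjusted p = 0.9947). With the replicate number as a block they were -0.05 (SE 0.0453, adjusted p = 0.628) and -0.16 (SE 0.0487, adjusted p = 0.07454). In each of the 3 pairs of equal replicate number in these 2 protocols the HMGB1 library was the lower.

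Lyz1 with HMGB1 was 3.69, 2.58 and 3.48 CPM in Protocol 1A, 3.79, 2.41 and 2.58 CPM in 1B and 11.9, 10.7 and 9.95 CPM in 1C. It was 9.32, 13.7 and 14.2 CPM in Protocol 2 and 0.430, 0.389 and 0.400 CPM, from 9, 5 and 7 counts, in Protocol 3. All 5 sets overlapped with their Controls. The log2 fold changes were -0.30 (SE 0.246, adjusted p = 0.316), 0.00 (SE 0.346, adjusted p = 0.9924), 0.18 (SE 0.158, adjusted p = 0.3541) and -0.07 (SE 0.152, adjusted p = 0.9674) in 1A, 1B, 1C and 2. With library totals Lyz1 gave -0.72 in 1A (adjusted p = 0.01842) and -0.45 in 1C (adjusted p = 0.02803), where the same scaling moved the median gene by -0.42 and -0.63.

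The Lyz1 share of the lysozyme counts was small in every group. Controls had means of 0.0237 ± 0.00524% (1A), 0.0371 ± 0.0107% (1B) and 0.0525 ± 0.00836% (1C). The adult Controls had 0.0756 ± 0.00799% in Protocol 2 and 0.201 ± 0.151% in Protocol 3. In Protocol 1A Control replicate 1 the share of 0.0293% rested on 131 Lyz1 counts (exact 95% interval 0.0245 to 0.0348%), and in Protocol 3 Control replicate 2 the share of 0.0937% rested on 6 (0.0344 to 0.204%). With HMGB1 the means were 0.0161, 0.0324, 0.0510, 0.0740 and 0.183%. By a two-sided exact permutation test p was 0.1 in 1A, and it was 0.7 and 0.8 in the other neonatal cultures, 1B and 1C. For the adult cells it was 0.9 (Protocol 2) and 1 (Protocol 3), where 3 against 3 libraries cannot go below 0.1. In Protocol 1A the HMGB1 shares were 0.0173, 0.0132 and 0.0180% against 0.0293, 0.0190 and 0.0228% in Control, with no overlap.

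Crybb1 remained rare in the treated cultures. With HMGB1, Protocol 1A libraries had 2, 5 and 3 counts, those of 1B 2, 1 and 0 and those of 1C 4, 0 and 7. The ratios of summed CPM to Control were 2.64 (95% interval 0.822 to 9.85), 1.81 (0.207 to 21.7) and 1.61 (0.589 to 4.605), for counting error only, and each interval includes 1. In Protocol 2 the counts were 7, 10 and 15, or 0.263, 0.343 and 0.555 CPM, and the log2 fold change was -0.58 (SE 0.548, adjusted p = 0.8796). Protocol 3 libraries with HMGB1 held 74.3, 56.8 and 68.9 CPM, overlapping with Control (-0.09, SE 0.107, adjusted p = 0.9947). Replicate 2 was the lowest of the 3 in both groups of Protocol 3.

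F13a1 with HMGB1 was 18.3, 13.7 and 11.4 CPM in Protocol 1A, 86.6, 37.9 and 38.2 CPM in 1B and 18.3, 5.60 and 8.15 CPM in 1C. These values lay close to the Controls of the same number. The log2 fold changes were -0.13 (SE 0.228, adjusted p = 0.6418), -0.11 (SE 0.559, adjusted p = 0.884) and -0.20 (SE 0.608, adjusted p = 0.807). With the replicate number as a block they were -0.13, -0.07 and -0.26 (SE 0.112, 0.0687 and 0.139, adjusted p = 0.3359, 0.375 and 0.1281). Adult libraries with HMGB1 held 2.14, 2.30 and 2.33 CPM in Protocol 2 (-0.41, SE 0.247, adjusted p = 0.7392) and 43.7, 41.6 and 44.3 CPM in Protocol 3 (0.01, SE 0.0766, adjusted p = 0.9966). Groups overlapped in all 5 protocols.

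Whether the responses themselves differed was tested as an interaction in a fit of all 30 libraries. Between Protocols 1 and 3, 3 of 6 genes responded differently, as did 42.7% of all genes. The difference was 2.12 for Pmepa1 (SE 0.123, adjusted p = 1.768e-15), -0.81 for Dab2 (SE 0.119, adjusted p = 9.459e-07) and 0.44 for Lyz2 (SE 0.147, adjusted p = 0.01572). The Lyz2 call was lost without Protocol 3 Control replicate 2 (0.27, adjusted p = 0.1442) or Protocol 3 HMGB1 replicate 3 (0.39, adjusted p = 0.06213), and with library totals the value was -0.06 (adjusted p = 0.7856). Lyz1 gave 0.17, Crybb1 1.02 and F13a1 -0.12 (adjusted p = 0.8649, 0.2403 and 0.9047). Between Protocols 1 and 2, 2 of 6 differed against 43.6% of all genes, Pmepa1 by 1.96 (SE 0.127, adjusted p = 3.302e-14) and Dab2 by -0.70 (SE 0.118, adjusted p = 1.019e-05). Lyz2 gave 0.30, Crybb1 1.48, Lyz1 0.024 and F13a1 0.27 (adjusted p = 0.106, 0.1326, 0.9982 and 0.8044). With the block, 4 of 6 passed, with Lyz2 (0.29, adjusted p = 0.0004768) and Crybb1 (1.496, adjusted p = 0.03677) added. Lyz2 also passed without Protocol 1B Control replicate 1 (0.34, adjusted p = 0.04095), and Crybb1 without Protocol 2 Control replicate 1 (1.83, adjusted p = 0.04825).

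Other response differences passed for 0 of 6 genes by edgeR: Protocol 2 against 3, where 0.368% of all genes passed, 1B against 1A, with 6.9%, and 1C against 1A, with 14%. The genes with an unadjusted p below 0.05 numbered 0, 0 and 1, and DESeq2 called 0, 0 and 1. For Protocol 2 against 3, Lyz1 gave 0.15, Lyz2 0.14, Dab2 -0.12, Crybb1 -0.46, Pmepa1 0.16 and F13a1 -0.39 (adjusted p = 0.9999 for each). For 1B against 1A, the values in the same order were 0.26, -0.054, 0.0090, -0.57, -0.17 and -0.0044 (adjusted p from 0.6968 to 1). For 1C against 1A, they were 0.44, -0.083, 0.37, -0.67, 0.019 and -0.079 (adjusted p from 0.08652 to 1). The single gene was Dab2 in 1C against 1A, whose smaller decrease in 1C passed with DESeq2 size factors (0.45, adjusted p = 0.03903), with the block (0.38, adjusted p = 0.01181), without Protocol 1A HMGB1 replicate 2 (0.50, adjusted p = 0.01648) and without Protocol 1C HMGB1 replicate 1 (0.45, adjusted p = 0.03566).

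The TGF-beta pathway was examined around Pmepa1, as 18 genes for ligands, receptors, SMAD proteins and their regulators. Between Protocols 1 and 3, 16 of 18 were lower in Protocol 1 and 0 higher, against 42.9% and 37.3% of all genes, with a median log2 difference of -1.81 against -0.12 over all genes tested. Among them were Tgfbr1, the type I receptor (-3.68), Smad3, a receptor-activated SMAD (-3.92), and Skil, a feedback repressor of SMADs (-4.30). Protocol 2 was lower than Protocol 3 in 13 and higher in 3, against 37.2% and 40.1% of all genes, with a median of -1.15 against 0.08. Between Protocols 1 and 2, 13 of 18 were lower in Protocol 1 and 2 higher, against 30.7% and 24.6% of all genes, with a median of -0.57 against -0.02, and the ligand Tgfb3 had a log2 difference of -3.79. The 6 fibroblast markers summed to 176 to 264 CPM in Protocol 2 Controls, 1.73 to 95.4 CPM in Protocol 1 Controls and 2.00 to 2.66 CPM in Protocol 3 Controls, and their part in the list's differences was not tested. With HMGB1, 9 of 16 tested rose and 5 fell in Protocol 1A, against 29.7% and 31.6% of all genes. There Skil (2.38) and the repressor Tgif1 (0.89) rose and Ski (-1.49), another SMAD repressor, fell. In 1B, 6 of 16 rose and 6 fell, against 29.8% and 32% of all genes, with Skil at 2.27 and the type II receptor Tgfbr2 at -1.85, and in 1C 6 of 18 rose and 6 fell, against 28.4% and 31.8%, with Skil at 2.45 and Smad3 at -2.37. The list medians were 0.26, 0.17 and 0.06 in 1A, 1B and 1C, against -0.04, -0.02 and -0.04 over all genes. In Protocol 2 edgeR called 1 of 18, Skil (0.64, adjusted p = 0.0003602), against 1.49% of all genes, and DESeq2 called 2. In Protocol 3 both tools called 0 of 18, where edgeR called 0.123% of all genes, with 1 list gene at an unadjusted p below 0.05.

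Around Dab2, 10 genes of clathrin adaptors, coat proteins and cargo receptors were taken. In Protocol 1A, 3 of 8 tested rose with HMGB1 and 4 fell, where 61.3% of all genes changed. Among those that fell was Lrp1, a large receptor that carries many ligands (-0.92). Lrp1 also fell in 1B (-0.80) and in 1C (-1.04). In 1B, 2 of 8 rose and 3 fell, and in 1C 1 rose and 3 fell, where 61.8% and 60.2% of all genes changed, with list medians of -0.10, -0.04 and -0.20 in the 3 cultures. In Protocols 2 and 3, edgeR and DESeq2 called 0 of 9, where edgeR called 1.49% and 0.123% of all genes. In each, 1 list gene had an unadjusted p below 0.05. Between Controls of Protocols 1 and 3, 3 of 9 were higher in Protocol 1 and 5 lower, including the endocytic regulator Numb (-3.12), where 80.1% of all genes differed, and the median was -0.58 against -0.12 over all genes.

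Of 9 other crystallins, 4 had enough counts among Controls, and 4 of 4 were lower in Protocol 1 than in Protocol 3, where 42.9% of all genes were lower. They were led by Cryba4, the neighbour of Crybb1 in the genome (-3.71), and Cryab, a small heat shock protein (-3.32). Cryba4 was not different between Protocols 2 and 3 (-0.15, adjusted p = 0.6483), and Cryab was higher in Protocol 2 (1.65). For HMGB1, 0 crystallins could be tested in 1A, 2 in each of 1B, 1C and Protocol 2, and 4 in Protocol 3. Of those tested, edgeR and DESeq2 called 0, and at most 1 per protocol had an unadjusted p below 0.05. Of all genes, edgeR called 61.8, 60.2, 1.49 and 0.123% in 1B, 1C, Protocol 2 and Protocol 3. Of 9 genes of transglutaminases and factor XIII B, 3 could be tested in each neonatal culture. With HMGB1, 1 of 3 rose and 1 fell in 1A and in 1C, and 1 rose and 0 fell in 1B. Of all genes, 61.3, 60.2 and 61.8% changed in 1A, 1C and 1B. The list medians were -1.04, -0.77 and -1.16 in 1A, 1B and 1C. The gene that rose was Tgm2, the tissue transglutaminase, by 2.56, 4.39 and 3.04 log2 units in 1A, 1B and 1C, where F13a1 did not pass. In Controls Tgm2 was lower in Protocol 1 than in Protocol 3 (-2.97). There 2 of 3 tested were lower and 1 higher, against 42.9% and 37.3% of all genes. Of 8 further genes of the lysozyme family, Lyzl4 alone had enough counts to be tested, with at most 4.20 CPM in a library. It fell with HMGB1 in 1A (-1.81, adjusted p = 0.001596), where 61.3% of all genes changed. Lyzl4 was not called in 1B (-1.29), 1C (-0.38), Protocol 2 (-0.59) or Protocol 3 (-0.025).

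Alongside these, 4 other landmark genes were read. In Controls, Mcm5, a replication helicase subunit of early microglia, was higher in Protocol 1 than in Protocol 3 (3.86), as was Pf4, a chemokine of yolk sac macrophages (1.84). Csf1, the macrophage growth factor (-6.12), and Cd14, the lipopolysaccharide co-receptor (-3.20), were lower. Against Protocol 3, Protocol 2 had the same signs, with 2.48 for Mcm5, 0.44 for Pf4, -3.99 for Csf1 and -3.67 for Cd14. With HMGB1, Csf1 rose by 2.54, 3.41 and 2.71 and Cd14 by 2.27, 3.04 and 2.14 in 1A, 1B and 1C, while Mcm5 fell by 0.58, 1.20 and 0.95 on the log2 scale. Pf4 gave 0.22 in 1A (adjusted p = 0.01691), 0.43 in 1B (adjusted p = 0.0008404) and 0.39 in 1C (adjusted p = 0.2134). Its direction depended on the scaling, since with library totals alone its Control mean was the higher, 127 against 110.1 CPM in 1A, 116 against 113 CPM in 1B and 181 against 153 CPM in 1C. In the adult protocols the edgeR adjusted p of these genes was 0.4035 or more in Protocol 2 and 0.1585 or more in Protocol 3, the lowest being that of Csf1 (-0.28) and of Pf4 (-0.49).

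Across the 10 group means, the levels of the 6 genes spanned different ranges. The ratio of the highest to the lowest mean was 2340-fold for Crybb1, 96.2-fold for Lyz2, 45.5-fold for Pmepa1, 31.9-fold for Lyz1, 25.8-fold for F13a1 and 3.24-fold for Dab2. Ordered by mean, Dab2 ran from Protocol 1B Control at 633 ± 33.2 CPM to Protocol 3 Control at 195 ± 13.4 CPM, and Pmepa1 from Protocol 3 Control at 233 ± 23.0 CPM to Protocol 1A Control at 5.11 ± 0.0517 CPM. Of the 9 pairs of neighbours in these orders, 4 overlapped for Dab2 and for Pmepa1 and 7 for each of the other genes. For Lyz1, the gaps without overlap lay between Protocol 1C and Protocol 1A Controls and between Protocol 1B and Protocol 3 Controls. For Lyz2 they lay between Protocol 1A Control and Protocol 1B with HMGB1 and between Protocol 1B and Protocol 3 Controls, so the order among 1A, 1C and 2 was not resolved.

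As a description over the 10 group means of log2 CPM, which share protocols, Lyz1 and Lyz2 correlated at r = 0.909, Crybb1 and Pmepa1 at 0.879, Lyz2 and Crybb1 at -0.939 and Dab2 and Pmepa1 at -0.889. Among 9505 genes of at least 10 CPM in their highest group, the closest to Lyz2 were Siglec1 (0.997), a sialic acid receptor of macrophages, Qpct, Nudt19 and Cep70 (0.995, 0.995 and 0.994). Closest to Lyz1 were Mfge8 (0.993), which bridges dying cells to phagocytes, Mgll (0.976), Marc2 (0.971) and Mmp12 (0.965), the macrophage elastase. Dkk2 (0.977), a Wnt antagonist, led for Dab2, followed by Zfp28, Mad1l1 and Adssl1 (0.969, 0.968 and 0.959). For Crybb1 the first was Nr4a1 (0.995), an immediate early gene, then Mapk8ip3, Cwc25 and Zfp869 (0.995, 0.994 and 0.994). Mbnl2 (0.986), a splicing regulator, was closest to Pmepa1, before Gtdc1, Prr5l and Hivep2 (0.984, 0.983 and 0.983). F13a1 had looser neighbours, Shmt2 (0.950), a mitochondrial enzyme of serine metabolism, Katnbl1, Anp32e and Arap3 (0.936, 0.930 and 0.929).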

How the data were processed

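Bulk RNA was sequenced from 30 mouse microglia libraries in 10 groups of 3, defined by protocol and treatment. The deposited values are raw read counts per gene, which the authors made with HISAT2 2.0.5 and featureCounts 1.5.0-p3. The genome build is not given in the sources used here. Gene positions and lengths are those of the deposited table. Of its gene IDs found in GENCODE M21 (GRCm38), 98.3% had the same position there, as did all 6 genes. The Lyz1 and Lyz2 transcript sequences were taken from GENCODE M21.

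Counts were tested in R 4.3.3 with edgeR 4.0.16 (filterByExpr, TMM, robust quasi-likelihood F test) and adjusted by Benjamini-Hochberg over all genes tested, at a threshold of 0.05. Responses to HMGB1 were fitted in the 6 libraries of a protocol, Controls in 15 libraries and differences between responses in all 30. The SE of a log2 fold change is its size divided by the square root of F. The Lyz1 share was compared by a two-sided exact permutation test. Intervals for counts and shares are exact at 95% and cover counting error only, since reads carry no molecular identifiers. The fits were tested on simulated data. Library totals were 14151983 to 28564757 counts, so that 3 counts, the limit that a count of 0 allows, were worth 0.103 to 0.234 CPM.

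The 6 genes and all lists were chosen with earlier results of these data known. All 6 are named in each comparison, with the 4 genes of most similar pattern for each and, of each list, up to 3 genes with the smallest adjusted p and the highest gene not called. Some genes of the lists are not reported here. Alternatives were DESeq2 1.42.0 (size factors and Wald test), no filter, a fold threshold, other sets of libraries, the replicate number as a block, each library left out, and, chosen after seeing the data, library totals alone for all tests.

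Deviations of same-numbered Control and HMGB1 libraries from their group means correlated at 0.180 to 0.288 in Protocol 2 and at 0.131 to 0.186 in Protocol 3, so the numbers were taken to pair the libraries there, as a reading of the data. The block changed no call among the 6 genes in these 2 protocols.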

Additional observations from a re-analysis of the deposited data

Results flagged for a closer look

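The HMGB1 response differed between protocols, by the test of the difference itself, in 5 instances among the 6 genes. Pmepa1, the TGF-beta-induced restraint on SMAD signalling, responded more strongly in Protocol 1 than in Protocol 3 by 2.12 log2 units and than in Protocol 2 by 1.96, and each of the 9 neonatal HMGB1 libraries was above each Control of its protocol. For Dab2, the clathrin adaptor, the differences were -0.81 against Protocol 3 and -0.70 against Protocol 2. For Lyz2 the difference of 0.44 against Protocol 3 was not kept without Protocol 3 Control replicate 2 (0.27, edgeR adjusted p = 0.1442), the library with the highest neutrophil markers, and their part was not tested.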

How the results depend on the processing

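Pmepa1 and Dab2 kept the direction and the call of their HMGB1 responses in Protocols 1A, 1B and 1C under every alternative on the adjusted p alone. With an absolute log2 fold change of at least 1 also required, 1 of the 6 genes was called in each of 1A, 1B and 1C, 2 between Controls of 1B and 1A, and 1 for the response difference of Protocol 1 against 3 and 1 against 2. With library totals alone, 4 were called in 1C, and values reversed for Lyz2 in 1A (-0.15), 1B (-0.22) and 1C (-0.41), for Lyz1 in 1B (-0.46) and 1C (-0.45), for F13a1 in Protocol 3 (-0.022) and for the Lyz2 response difference of Protocol 1 against 3 (-0.062) and against 2 (-0.21). That scaling moved the median of all genes by -0.42, -0.47 and -0.63 in 1A, 1B and 1C. Small values also reversed without the filter (Lyz1 in 1B, -0.039) and in a fit of all 30 libraries (Lyz1 in 1B, -0.014, and F13a1 in Protocol 3, -0.011), and the difference in the Protocol 3 Lyz1 share became 0.0580 percentage points between medians. The response difference of 1C against 1A had 1 gene, Dab2, with DESeq2 size factors, with the DESeq2 Wald test, without the filter and with the replicate block.

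Same-numbered libraries correlated at 0.0180 to 0.0661 in 1A, 0.0962 to 0.307 in 1B and 0.0519 to 0.0902 in 1C, and Control libraries across protocols at -0.137 to 0.132. Pairing was read from the lowest correlation of a protocol, which was 0.180 in Protocol 2 and 0.131 in Protocol 3. The Protocol 3 value also lay within that last range, so the range does not separate Protocol 3 from the neonatal cultures. In 1A, 1B and 1C the lowest was 0.0962 or less, and numbers were not taken as pairs there. Even so, the same number had the highest correlation in 1B, in 1C and in replicates 2 and 3 of 1A. With the block, the SE of the F13a1 response went from 0.228 to 0.112 in 1A, from 0.559 to 0.0687 in 1B and from 0.608 to 0.139 in 1C. With the block, Lyz2 passed in 1B (0.24) and 1C (0.22), Dab2 no longer passed between Controls of 1C and 1A (0.22), and the response difference of Protocol 1 against 2 had 4 genes.

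With each library left out in turn, 813 values kept direction and call, 8 lost and 5 gained a call and 20 changed sign, and the response difference of 1C against 1A had 0 to 1 genes. Uncalled log2 values changed sign for F13a1 in 1A (-0.33 to 0.10), 1B (-0.61 to 0.46), 1C (-0.83 to 0.35) and Protocol 3 (-0.013 to 0.030), Lyz1 in 1B (-0.24 to 0.43) and Protocol 2 (-0.17 to 0.11), Pmepa1 in Protocols 2 (-0.016 to 0.21) and 3 (-0.099 to 0.022), Dab2 (-0.0084 to 0.075) and Crybb1 (-0.18 to 0.010) in Protocol 3, and Crybb1 between Controls of 1C and 1A (-0.025 to 1.35). So did the differences in Lyz1 share, in percentage points, in 1B (-0.00965 to 0.000974), 1C (-0.00599 to 0.00230), Protocol 2 (-0.00740 to 0.00586) and Protocol 3 (-0.0713 to 0.0687). The causes were not tested. Depth limits Crybb1 in the neonatal cultures (0 to 7 counts per library) and Lyz1 in Protocol 3 (5 to 17 counts).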
